A study of Homo sapiens with 30 samples.

Results

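The cytosolic ribosomal protein genes code for the proteins of the 2 subunits of the ribosome that translates nuclear-encoded messages. They were taken from the count table by name: RPL or RPS followed by a number and at most 1 of the letters A, L or X, plus RPLP0, RPLP1, RPLP2 and RPSA. The rule gave 81 of the 58780 genes listed, 49 of the large subunit and 32 of the small, and left out pseudogenes. In all, 80 of the 81 passed the filter on low counts, as did 22919 genes of the whole table. RPL10L, an intronless relative of RPL10 that is used mainly in testis, did not pass, with 1 count in all 30 libraries together.

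Ribosomal proteins are made in equal numbers, and their genes are among the most heavily transcribed in growing cells. Most of their messages start with a C followed by a run of pyrimidines, the terminal oligopyrimidine (TOP) start, through which LARP1 and mTOR control translation. Their promoters also bind general and growth-related factors such as MYC. The protein arginine methyltransferases (PRMTs) act on several ribosomal proteins: PRMT3 binds and methylates RPS2, and PRMT5 methylates RPS10. Ribosomal proteins that are not built into ribosomes, RPL5, RPL11 and RPL23 among them, can bind MDM2, the protein that marks p53 for breakdown.

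Nascent transcription was measured by PRO-seq, in which engaged RNA polymerases in permeabilised cells add labelled bases to their transcripts and the labelled RNA is captured and sequenced. The counts therefore report polymerases at work on a gene, not the amount of its messenger RNA. All libraries came from A549, a human lung adenocarcinoma line with wild-type p53, and all 15 groups of 2 libraries, the untreated cells included, were in 0.01% DMSO. GSK591, an inhibitor of PRMT5, was given at 1 µM for 2, 4 or 7 d, and MS023, an inhibitor of type I PRMTs, at 1 µM for 2, 4 or 7 d. The glucocorticoid dexamethasone (Dex) was given at 100 nM for 15 min or 3 h, alone or after 7 d of either inhibitor, and for 3 h together with either inhibitor. The untreated cells are labelled as 15 min in DMSO and serve all comparisons with untreated cells, which therefore share the same 2 libraries, and no untreated library of a longer time was analysed here. The labels do not say whether the 2 libraries of a group came from separate cultures, so the p-values measure only the spread between these libraries, which may be technical.

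Libraries held 8441211 to 13069598 counts, of which 58.7% to 78.7% lay on mitochondrial genes. The ribosomal protein genes took 27084 to 60563 counts per library, 1.19% to 1.93% of the counts on nuclear genes. In all such shares, the counts on nuclear genes leave out ribosomal RNA genes, their pseudogenes and nuclear copies of mitochondrial genes. The mitochondrial share averaged 74.7% in untreated cells and 59.1% after 7 d of MS023, so a level set per total count moves with it, and levels here are CPM, that is, counts scaled to 1 fixed library size after TMM correction. Of the A549 markers, AKR1B10, AKR1C1, AKR1C2 and ALDH1A1 had medians of 163, 206, 165 and 107 CPM, while SFTPC had 1.75 CPM and NKX2-1 0.108 CPM, at 0 in 10 of 30 libraries. Of the epithelial markers, KRT8, KRT18 and KRT19 had 223, 106 and 13.5 CPM, and EPCAM and CDH1 were low, at 2.34 and 2.64 CPM. Of the markers of other cells, the fibroblast gene COL1A1, at 3.93 CPM, lay above EPCAM and CDH1, and the other 8 had medians of at most 0.58 CPM (COL3A1). COL1A1, COL3A1 and the leukocyte gene CD68 were at 0 in no library, while DCN, PTPRC and CD3E were at 0 in 15, 13 and 21. The 2 libraries of Dex with MS023 agreed least with each other over the ribosomal protein genes (Pearson r of log2 CPM across genes 0.961, against 0.981 to 0.995 in the other groups). Replicate 2 of that group held 75.9 CPM of RPS6 against 48.2 in replicate 1, and 26.6 CPM of RPL5 against 12.2.

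The bases around the start of transcription show the feature for which the family is known, and some members that lack it at this position. RefSeq start windows (GRCh38.p14) were found for 64 of the 81 genes. A TOP start, here a C at the annotated start followed by at least 4 bases that are C or T on the gene's strand, stood in 46 of these 64 (71.9%) and in 1404 of 27305 genes with such a window (5.14%). In the sequences that follow, 30 bases lie before the annotated start and 20 from it on, and capitals mark the unbroken run of C and T that begins at the start. RPS12, RPL13A, RPS16, RPS23 and RPL35 are shown because they were among the genes that fell most in the comparisons below, RPLP0 for its high level, and RPS26 and RPL9 because they fell with no TOP start at this position. RPS27 and RPS27L are shown last because these paralogs differ here and in their response.
RPS12, chr6:132814539-132814588, plus strand: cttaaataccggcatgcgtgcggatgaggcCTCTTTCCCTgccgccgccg
RPL13A, chr19:49487578-49487627, plus strand: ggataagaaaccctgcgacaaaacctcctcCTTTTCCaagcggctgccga
RPS16, chr19:39435930-39435979, minus strand: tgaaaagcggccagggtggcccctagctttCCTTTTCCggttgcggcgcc
RPS23, chr5:82278335-82278384, minus strand: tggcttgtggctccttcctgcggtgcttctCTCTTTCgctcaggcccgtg
RPL35, chr9:124861938-124861987, minus strand: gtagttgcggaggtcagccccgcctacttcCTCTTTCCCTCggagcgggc
RPLP0, chr12:120201092-120201141, minus strand: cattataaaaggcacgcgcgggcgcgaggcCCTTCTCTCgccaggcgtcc
RPS26, chr12:56041888-56041937, plus strand: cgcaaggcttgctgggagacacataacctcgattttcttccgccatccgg
RPL9, chr4:39458903-39458952, minus strand: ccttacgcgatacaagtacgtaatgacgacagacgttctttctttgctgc
RPS27, chr1:153990732-153990781, plus strand: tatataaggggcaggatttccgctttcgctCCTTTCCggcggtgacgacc
RPS27L, chr15:63157458-63157507, minus strand: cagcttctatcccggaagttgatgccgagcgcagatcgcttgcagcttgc
RPS27 began with a pyrimidine run and RPS27L did not. Other motifs were searched in the window from 250 bases before to 50 after the start. On either strand, CCGGAAG, a site of ETS factors such as GABPA, stood in 23 of 64 members (35.9%) and 12.2% of all genes, and CACGTG, the E-box that MYC and MAX bind, in 4 of 64 (6.25%) and 8.77%. TATAAA, searched on the gene's strand 40 to 15 bases before the start, stood in 3 of 64 (4.69%) and 2.90%.

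Per kilobase of exon, the median ribosomal protein gene had 12.8 CPM over all libraries, against 1.59 CPM per kilobase for the 14978 protein-coding genes tested, and 3.26% of those genes lay above it. The highest levels per kilobase were those of RPS19 (44.7 CPM), RPLP0 (43.8 CPM), the scaffold of the stalk that recruits elongation factors, and RPL12 (41.0 CPM), which lies at the base of that stalk. The lowest of the members tested were RPL39L (2.34 CPM), RPS10 (1.49 CPM) and RPL3L (0.694 CPM). RPL3L is the heart and skeletal muscle form of RPL3, and RPL39L a form of RPL39 with high use in testis. RPS10 is not tissue-restricted. It shares 929 bases of exon with the readthrough gene RPS10-NUDT3, so its counts are uncertain, and the part of this in its low level was not tested. In all, 35 of the 81 genes share exon bases with another gene on their own strand, among them small nucleolar RNA (snoRNA) genes, and 29 overlap a gene on the other strand. Neither the strand setting nor the counted feature is given in the sources used here. If whole genes rather than exons were counted, the order of these levels would differ: RPS19 spans 13009 bases, of which 3799 are exonic.

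Summed over the family, the level was highest after 15 min of Dex and lowest after 7 d of GSK591 followed by 3 h of Dex. Untreated libraries held 4543 and 4903 CPM on the family (4723 ± 255 CPM, SD, n = 2). Libraries of 4 d of GSK591 held 3187 and 3272 CPM (3230 ± 60.0 CPM), 68.4% of the untreated mean, and both lay below both untreated libraries. After 7 d of GSK591 the sums were 3467 and 3699.9 CPM (3583 ± 165 CPM), and after 2 d they were 3951 and 4003 CPM (3977 ± 36.9 CPM). The groups of GSK591 alone thus lay in the order 2 d, 7 d, 4 d from high to low, with no overlap between neighbours. For MS023 the sums were 4562 and 4587 CPM at 2 d, 3837 and 3997 CPM at 4 d and 4289 and 4018 CPM at 7 d. Those at 2 d lay within the untreated pair's spread, and those at 4 and 7 d lay below both untreated libraries. No test was run on the sum, to which members with many counts contribute most.

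**Figure D1:**
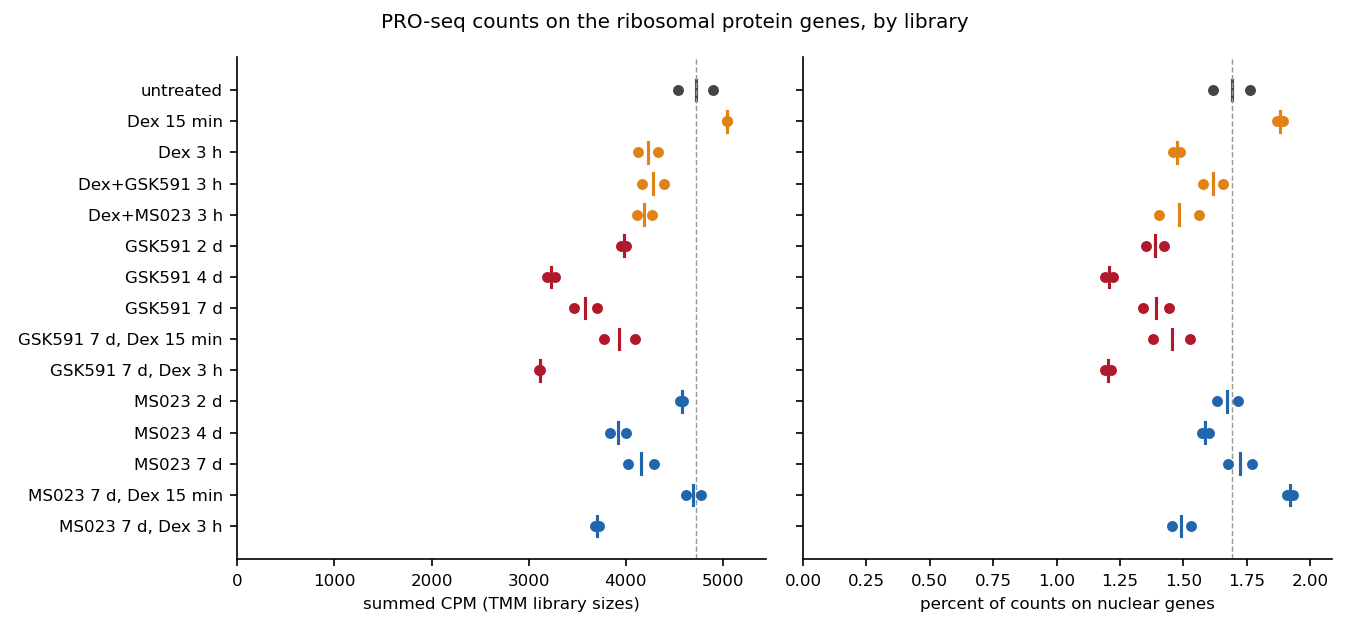
Summed level of the ribosomal protein genes in each of the 30 libraries, as CPM with TMM library sizes (left) and as percent of the counts on nuclear genes (right). The latter leave out ribosomal RNA genes and nuclear copies of mitochondrial genes. Points are libraries, bars group means (n = 2) and the dashed line the untreated mean; GSK591 at 4 d is low on both axes (3230 CPM, 1.21%), while MS023 at 7 d is below untreated on the left (4154 CPM) and not on the right (1.72% against 1.69%).

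On the second scale, the share of nuclear counts, the family held 1.62 and 1.76% in untreated cells and 1.22 and 1.19% after 4 d of GSK591, 71.4% of the untreated mean. The share after 7 d of GSK591 was 82.3% of the untreated mean. MS023 differed between the scales: its share at 7 d was 1.77 and 1.67%, which overlaps the untreated pair, and its mean was 101.9% of untreated. At 4 d of MS023 the share was 1.57 and 1.60%, 93.9% of the untreated mean. The highest shares were those of MS023 for 7 d with 15 min of Dex, 1.91 and 1.93%. Untreated replicate 1 held 13069598 counts, 76.0% of them mitochondrial, and 2526867 in this nuclear total. Replicate 1 of 7 d of MS023 held 9247921, 58.7% and 3422257. The rest, on ribosomal RNA genes and copies of mitochondrial genes, was thus not the same part in each group. The share of all counts outside mitochondrial genes was not taken, so 101.9% and 71.4% hold for this nuclear total only.

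With the PRMT5 inhibitor GSK591, most ribosomal protein genes fell relative to other genes by 4 d, and RPS27L was the 1 member that rose. At 4 d of GSK591, 66 of the 80 genes were lower and 1 was higher than in untreated cells, where 8.28% of all genes tested were lower and 8.91% higher. The threshold was an adjusted p of 0.05 in edgeR's quasi-likelihood test with Benjamini-Hochberg adjustment over all 22919 genes, as in all counts that follow. The members' median log2 fold change was -0.58, while that of all genes was within 0.01 of 0. With counts on nuclear genes as the scaling, 58 were lower and 1 higher (median -0.52), and with total counts 4 were lower and 1 higher (median -0.17). The median of all genes was 0.06 and 0.42 under these scalings. Leaving out any 1 of the 4 libraries left 51 to 60 genes called.

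RPS26, a protein of the mRNA exit channel (ENSG00000197728.11, chr12:56041351-56044697, plus strand, GENCODE 29 coordinates on GRCh38), fell most at 4 d. It had 16.5 and 14.9 CPM in untreated cells and 8.36 and 6.22 CPM at 4 d of GSK591, with log2 fold change -1.10 ± 0.18 (SE; edgeR adjusted p = 1.1e-05). RPS12, a small-subunit protein whose gene holds 3 snoRNA genes (ENSG00000112306.7, chr6:132814441-132817564, plus strand), had 17.8 and 20.2 CPM and then 9.51 and 8.52 CPM, with log2 fold change -1.07 ± 0.15 (SE; edgeR adjusted p = 8.2e-07). Both pairs stood apart, with every treated library under every untreated one. RPS26 stayed called under every alternative run, total-count scaling and each left-out library included, while RPS12 was not called under total-count scaling. RPL13A, which also has a role outside the ribosome in silencing inflammatory messages, had 71.9 and 83.4 CPM and then 35.4 and 41.3 CPM (log2 fold change -1.02). Its gene holds 4 snoRNA genes, with which it shares bases in the annotation.

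The other 13 genes were not called at 4 d. RPS10, RPL4, RPL5, RPL22, RPL39L and RPL3L had changes of -0.75, -0.73, -0.52, -0.40, -0.36 and -0.29 on the log2 scale without passing the test. RPL7, RPS19 and RPL17 had -0.24, -0.22 and -0.17. RPS27, RPS28, RPS29 and RPS20, all of the small subunit, had -0.06, -0.07, -0.02 and 0.10. For RPS29, a zinc-binding protein of the small subunit's head, the libraries held 34.6 and 39.8 CPM untreated and 35.4 and 38.2 CPM at 4 d, and these overlap.

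**Figure D2:**
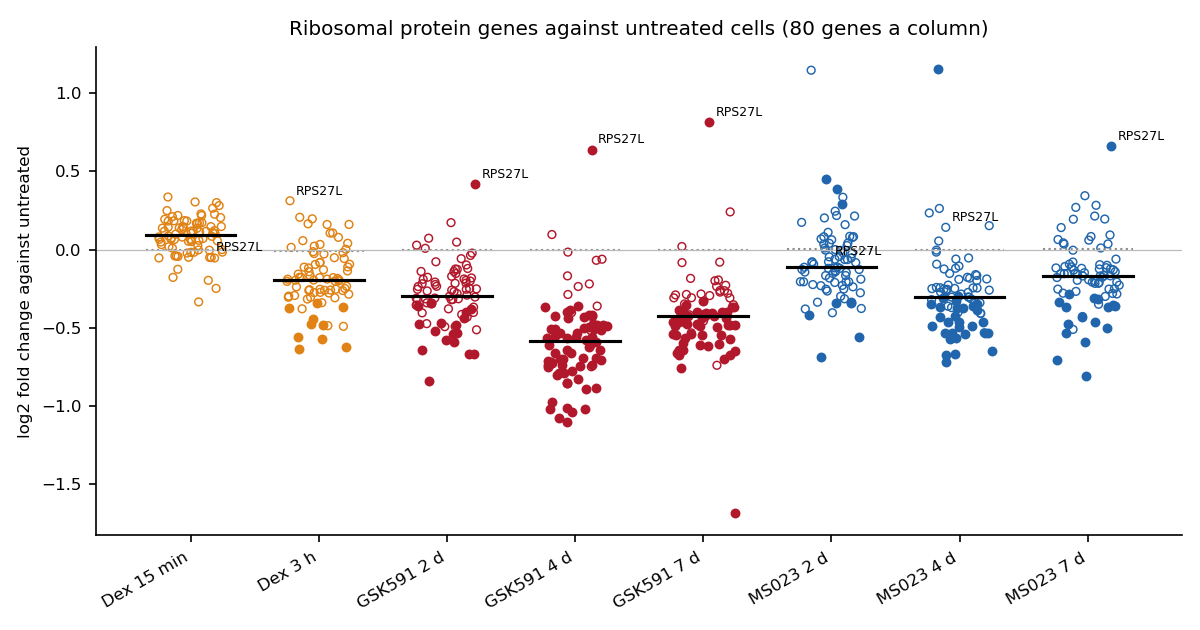
log2 fold change (vertical axis) of each of the 80 ribosomal protein genes tested against untreated cells, by treatment. Filled points passed an adjusted p of 0.05 in edgeR, black bars are the members' medians and dotted bars those of all genes tested; the members' median is lowest at 4 d of GSK591 (-0.58), RPS27L is the filled point that rises with GSK591, the high points of MS023 at 2 and 4 d are RPL3L and the lowest point of GSK591 at 7 d is RPL39L. With total-count scaling the medians of MS023 lie above 0.

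At 2 d of GSK591, 18 genes were lower and 1 higher, beside 2.45% lower and 3.19% higher among all genes, with a members' median of -0.29. RPS25, which some viral internal ribosome entry sites need, had 17.7 and 14.8 CPM in untreated cells and 7.53 and 10.5 CPM at 2 d, with log2 fold change -0.84 ± 0.18 (SE; edgeR adjusted p = 0.0025). RPL35, at the exit of the nascent peptide tunnel, had 47.7 and 49.5 CPM and then 29.4 and 31.8 CPM, with log2 fold change -0.66 ± 0.12 (SE; edgeR adjusted p = 2.4e-04). RPL11 had 24.4 and 27.2 CPM and then 15.3 and 17.1 CPM, with log2 fold change -0.67 ± 0.19 (SE; edgeR adjusted p = 0.033). In each of these genes both treated libraries lay below both untreated ones. The count depended on which libraries were used: it was 5 without untreated replicate 2, 9 without untreated replicate 1, 6 without GSK591 replicate 1 and 7 without GSK591 replicate 2. It was 35 in a fit of these 4 libraries alone, 34 without the libraries of Dex with MS023, and 1, higher, with total counts as the scaling.

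At 7 d of GSK591, 51 genes were lower and 1 higher, beside 6.52% lower and 6.68% higher among all genes, with a members' median of -0.42. RPL5, which carries 5S ribosomal RNA into the ribosome together with RPL11, had 16.7 and 16.6 CPM untreated and 9.65 and 10.1 CPM at 7 d, with log2 fold change -0.76 ± 0.23 (SE; edgeR adjusted p = 0.023). RPL41, the smallest ribosomal protein, had 38.7 and 39.4 CPM and then 23.8 and 24.4 CPM, with log2 fold change -0.70 ± 0.12 (SE; edgeR adjusted p = 3.3e-05). RPS3A, of the small subunit, had 16.0 and 19.6 CPM and then 9.76 and 12.7 CPM, with log2 fold change -0.67 ± 0.16 (SE; edgeR adjusted p = 0.0032), a call lost without untreated replicate 2 or GSK591 replicate 1. In all 3 genes both treated libraries lay below both untreated ones. RPL41 stayed called under every alternative run, and RPL5 was not called when any 1 of the 4 libraries was left out. The genes that fell most at 4 d were not called at 7 d in each case. RPS26 had 14.1 and 17.8 CPM (log2 fold change 0.02), which overlaps the untreated pair, and RPS12 had 15.8 and 16.5 CPM (-0.24), neither called. The change between 4 and 7 d itself was not tested. The total of called genes at 7 d was 22 without untreated replicate 2, 20 without GSK591 replicate 1 and 42 or 43 without the other libraries. With nuclear counts as the scaling 25 were lower and 1 higher, and with total counts 6 lower and 1 higher.

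RPS27L and RPS27 code for nearly the same protein, but RPS27L is known as a direct target of p53. RPS27L (ENSG00000185088.13, chr15:63125872-63158021, minus strand) had 50.9 and 51.5 CPM in untreated cells, 71.0 and 65.9 CPM at 2 d of GSK591, 81.3 and 78.1 CPM at 4 d and 79.2 and 101 CPM at 7 d. Every GSK591 library lay above both untreated ones. The log2 fold changes were 0.42 ± 0.12, 0.64 ± 0.11 and 0.81 ± 0.12 (SE), with edgeR adjusted p of 0.023, 4.5e-05 and 7.9e-07. The calls at 4 and 7 d held under every alternative run, and the call at 2 d was lost when any 1 of the 4 libraries was left out. With MS023, RPS27L had 46.6 and 50.4 CPM at 2 d, 53.4 and 59.6 CPM at 4 d and 80.5 and 81.6 CPM at 7 d. It rose at 7 d, with log2 fold change 0.66 ± 0.11 (SE; edgeR adjusted p = 3.3e-05), a call that also held under every alternative run. RPS27 (ENSG00000177954.12, chr1:153990755-153992155, plus strand) had 40.3 and 43.8 CPM untreated, 41.4 and 39.2 CPM at 4 d of GSK591 and 32.2 and 35.8 CPM at 7 d. It was not called in any of the 6 comparisons of an inhibitor alone with untreated cells, with log2 fold changes from -0.31 to 0.26.

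**Figure D3:**
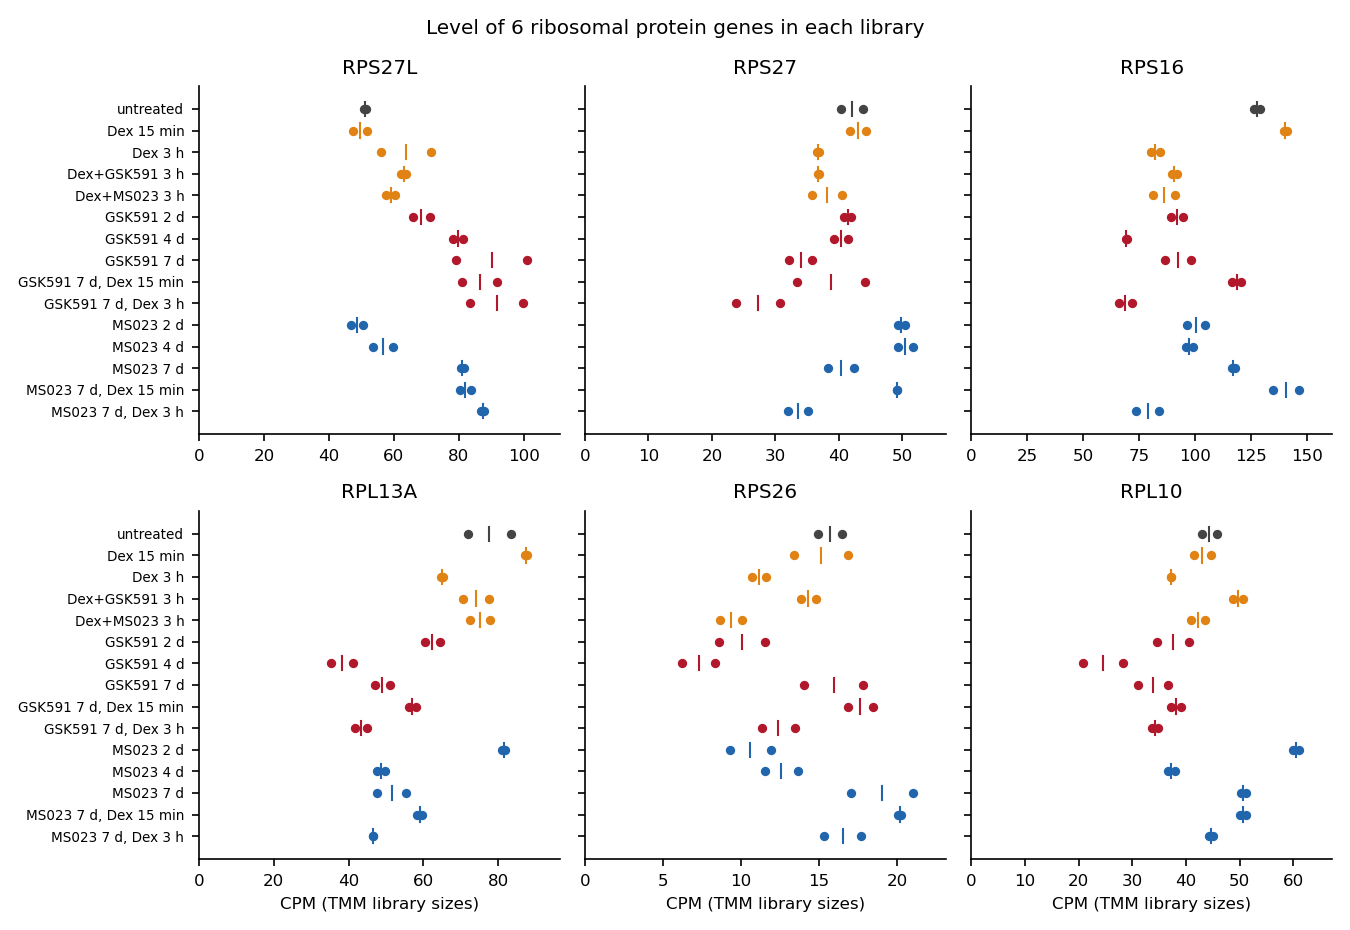
Level in CPM (TMM library sizes, horizontal axes from 0) of 6 ribosomal protein genes in each library; points are libraries and bars group means (n = 2). RPS27L is above untreated in all groups of GSK591 and in those with 7 d of MS023. It is also above untreated at 4 d of MS023 and after 3 h of Dex, alone or with MS023. Its rises at 4 d of MS023 and with Dex alone were not called. RPS16 is low in the groups with 3 h of Dex and at 2, 4 and 7 d of GSK591. RPL13A is below untreated at 4 and 7 d of both inhibitors (for MS023 not with total counts as the scaling). RPS26 is lowest at 4 d of GSK591. RPL10 is higher with MS023 than with GSK591 at 2, 4 and 7 d but lower at 3 h with Dex (42.3 against 49.6 CPM on average).

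With MS023 the family's median lay below that of all genes at each time, but the sign of the change against untreated cells depended on the scaling. At 2 d, 6 genes were lower and 3 higher (4.21% and 6.18% of all genes), with a median of -0.11, against 3 lower and 2 higher with nuclear counts and 46 higher with total counts. At 4 d, 31 were lower and 1 higher (6.37% and 7.80% of all genes), with a median of -0.30, against 8 lower and 3 higher with nuclear counts and 30 higher with total counts. At 7 d, 16 were lower and 1 higher (6.51% and 7.13% of all genes), with a median of -0.17, against 2 lower and 7 higher with nuclear counts and 75 higher with total counts. With total counts the median of all genes itself stood at 0.68, 0.74 and 1.02 at 2, 4 and 7 d, and with nuclear counts at 0.04, 0.17 and 0.22. The shares of all genes called under these scalings are not given here. Leaving out 1 library at a time gave 1 to 4 calls at 2 d, 12 to 20 at 4 d and 4 to 12 at 7 d. At 2 and 4 d each of the 4 libraries moved the count by over 1.5 times, with the lowest without untreated replicate 1 or MS023 replicate 1 at 2 d (1) and without untreated replicate 2 at 4 d (12). At 7 d it was 4 without untreated replicate 2, 6 without MS023 replicate 2, 9 without MS023 replicate 1 and 12 without untreated replicate 1.

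The genes that rose at 2 d of MS023 in the TMM-scaled fit were RPL10, a protein next to the peptidyl transferase center, RPS29 and RPL13. RPL10 had 42.9 and 45.7 CPM untreated and 61.1 and 60.0 CPM at 2 d, with log2 fold change 0.45 ± 0.11 (SE; edgeR adjusted p = 0.005). RPL13 had 241 and 253 CPM and then 299 and 305 CPM, with log2 fold change 0.29 ± 0.10 (SE; edgeR adjusted p = 0.046). Both rises were seen in both libraries of each gene, but RPL13 was not called when any 1 library was left out, and RPL10 was not called without untreated replicate 1 or MS023 replicate 1. Among those that fell at 2 d, RPS25 had 8.70 and 11.4 CPM (log2 fold change -0.68) and RPS26 9.29 and 11.9 CPM (-0.56). All 4 values lie below the untreated libraries of the same gene. The change of RPS26 was above 0 under total-count scaling, and its call was lost without either untreated library or MS023 replicate 1. The call of RPS25 was lost without untreated replicate 1 or MS023 replicate 1.

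RPL13A, RPS4X and RPL5 fell at 4 and at 7 d of MS023 in the TMM-scaled fit, and all 3 had a change above 0 with total counts as the scaling. The largest fall at 4 d was that of RPL11, with log2 fold change -0.72 ± 0.18 (SE, edgeR adjusted p = 0.0055). The change of RPL11 was also above 0 with total counts. RPL13A had 49.7 and 47.6 CPM at 4 d and 55.5 and 47.6 CPM at 7 d, with log2 fold change -0.59 ± 0.10 (SE; edgeR adjusted p = 4.6e-05) at 7 d. It was called in each fit with a library left out. RPS4X, the X-linked gene of a small-subunit protein, had 15.3 and 15.0 CPM untreated and 9.99 and 7.31 CPM at 7 d, with log2 fold change -0.81 ± 0.19 (SE; edgeR adjusted p = 0.0025). RPS4X was not called at 7 d without MS023 replicate 2. RPL3L rose at 4 d of MS023 from counts of 12 and 13 in the untreated libraries to 44 and 39, with log2 fold change 1.15 ± 0.40 (SE; edgeR adjusted p = 0.045). It was not called by DESeq2, nor in edgeR when any 1 of the 4 libraries was left out.

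Compared at the same dose and time, more ribosomal protein genes were lower than higher with GSK591 against MS023. At 4 d, 24 genes were lower with GSK591 and 1 was higher, beside 3.52% lower and 2.51% higher among all genes, with a members' median of -0.28. At 7 d, 19 were lower and 0 higher (4.47% and 4.91% of all genes), with a median of -0.25, and at 2 d 7 were lower and 1 higher (1.58% and 1.11%), with a median of -0.20. The members' median was below 0 under the other scalings too: with nuclear counts it was -0.27, -0.39 and -0.34 at 2, 4 and 7 d, and with total counts -0.58, -0.60 and -1.29. The median of all genes was -0.07, -0.11 and -0.12 with nuclear counts and -0.39, -0.33 and -1.07 with total counts. At 2 d the members split into 0 higher and 9 lower with nuclear counts, and 0 and 18 with total counts. Leaving out 1 library at a time left 1 or 2 calls at 2 d, 6 to 14 at 4 d (6 without GSK591 replicate 1) and 6 to 11 at 7 d (6 without GSK591 replicate 1), so each library moved these counts by over 1.5 times.

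RPL10 separated the inhibitors at all 3 times. It had 34.7 and 40.6 CPM with GSK591 and 61.1 and 60.0 CPM with MS023 at 2 d, with log2 fold change -0.68 ± 0.11 (SE; edgeR adjusted p = 9.4e-05). At 4 d it had 20.8 and 28.3 CPM and 36.6 and 38.0 CPM, and at 7 d 31.0 and 36.6 CPM and 50.2 and 51.2 CPM. Its log2 fold changes at these times were -0.60 ± 0.12 and -0.59 ± 0.11 (edgeR adjusted p = 3.5e-04 and 2.7e-04), and the GSK591 libraries were the lower ones each time. The calls at 2 and 7 d held under every alternative run, and that at 4 d was lost without GSK591 replicate 1. RPL10 overlaps DNASE1L1 on the other strand. RPL9, of the large subunit, had 10.4 and 10.2 CPM with GSK591 and 17.9 and 17.8 CPM with MS023 at 4 d, with log2 fold change -0.79 ± 0.14 (SE; edgeR adjusted p = 9.6e-05). At 7 d RPL39L had the largest difference, -1.52 ± 0.37 (edgeR adjusted p = 0.0044), on few counts, and its call was lost without GSK591 replicate 2. Among members with a mean of at least 5 CPM, RPL30 and RPL38, small proteins of the large subunit, differed most at 7 d, with log2 fold changes of -0.70 ± 0.13 and -0.60 ± 0.10 (edgeR adjusted p = 8.4e-05 and 2.8e-05). RPL38 had 45.9 and 50.9 CPM with GSK591 and 76.5 and 70.4 CPM with MS023, and the untreated libraries held 70.8 and 76.4 CPM, which overlaps MS023. RPS27L was higher with GSK591 at 2 d (0.49 ± 0.12) and 4 d (0.50 ± 0.11), while at 7 d the difference was 0.15 ± 0.11 (edgeR adjusted p = 0.48), which did not pass. The differences of RPS27L at 2 and 4 d were not called with total counts as the scaling, at 2 d also not with nuclear counts, nor without GSK591 replicate 1 or MS023 replicate 1 at either time, and at 2 d without MS023 replicate 2.

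**Figure D4:**
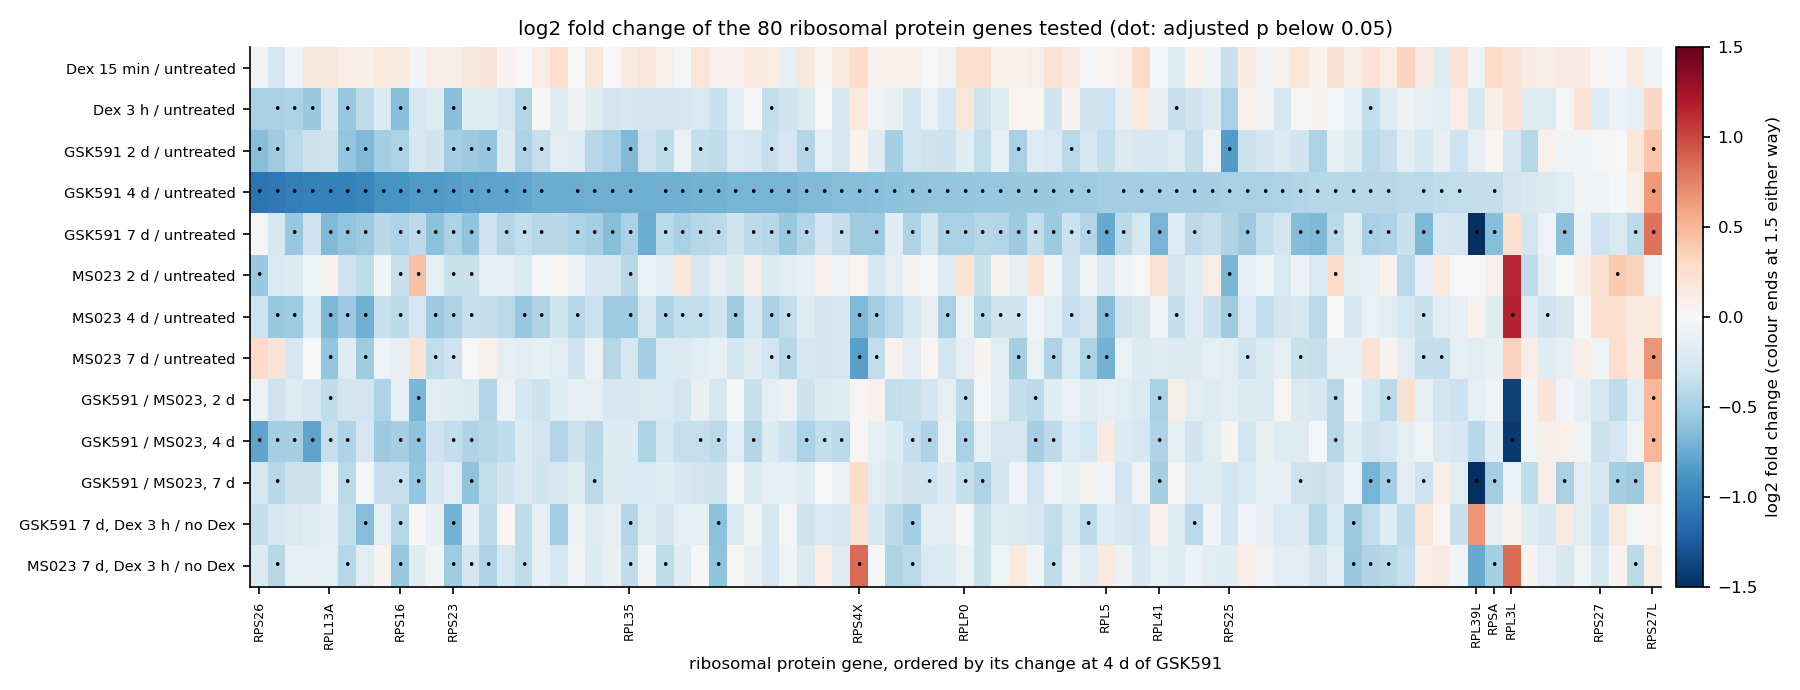
log2 fold change (colour) of the 80 ribosomal protein genes tested (columns, ordered by the change at 4 d of GSK591, with 15 of them labelled) in 13 comparisons (rows), with a dot where edgeR's adjusted p was below 0.05. The row of GSK591 at 4 d holds 67 dots and that of MS023 at 4 d 32; the dotted genes of Dex for 3 h are 10, and the sign of the MS023 rows depends on the scaling.

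Dex alone lowered 10 ribosomal protein genes by 3 h and none by 15 min in edgeR's test. After 15 min, 0 of 80 were called, beside 0.960% higher and 0.301% lower among all genes, and 60 of the 80 had a change above 0, with a median of 0.09. In that comparison 4 genes had an unadjusted p under 0.05 in edgeR, and DESeq2 called 0. After 3 h, 10 genes were lower and 0 higher, beside 4.41% lower and 6.11% higher among all genes, with a median of -0.19. With total counts as the scaling none was called, and with nuclear counts 10 were lower.

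The genes that fell most after 3 h of Dex were RPS16, RPS23 and RPL32. RPS16, whose protein contacts the transfer RNA in the decoding site (ENSG00000105193.8, chr19:39433207-39435948, minus strand), had 126 and 129 CPM untreated and 80.3 and 84.3 CPM at 3 h, with log2 fold change -0.63 ± 0.10 (SE; edgeR adjusted p = 4.1e-06). RPS23, a protein of the decoding center, had 88.0 and 95.1 CPM and then 60.5 and 58.4 CPM, with log2 fold change -0.62 ± 0.11 (SE; edgeR adjusted p = 1.9e-05). RPL32, of the large subunit, had 39.6 and 50.7 CPM and then 29.7 and 31.3 CPM, with log2 fold change -0.57 ± 0.12 (SE; edgeR adjusted p = 6.2e-04). In each gene both libraries of 3 h of Dex lay below both untreated ones, and below both of 15 min of Dex. RPL9, RPS12, RPS27A, RPL30 and RPS14 were lower as well. RPS27L had the largest change above 0, with log2 fold change 0.31 ± 0.12 (SE, edgeR adjusted p = 0.078), which did not pass. RPS16 and RPS23 stayed called whichever library was left out, and RPL32 was not called without untreated replicate 2. The count was 3 without untreated replicate 2, 6 without untreated replicate 1, 7 without Dex replicate 1 and 5 without Dex replicate 2. RPS23 overlaps ATG10 and RPL32 overlaps CAND2, both on the other strand.

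Dex for 3 h lowered ribosomal protein genes after 7 d of either inhibitor as well. After GSK591, 9 genes were lower and 0 higher than with GSK591 alone, beside 4.46% lower and 5.39% higher among all genes, with a median of -0.21. After MS023, 17 were lower and 1 higher than with MS023 alone, beside 5.38% and 5.72%, with a median of -0.17. With total counts as the scaling these became 0 lower after GSK591, and 0 lower and 1 higher after MS023. RPS16 had 86.7 and 98.4 CPM after GSK591 and 65.9 and 72.0 CPM with Dex added, and 117 and 118 CPM after MS023 and 73.6 and 84.1 CPM with Dex added. The log2 fold changes were -0.42 ± 0.10 and -0.57 ± 0.10 (SE; edgeR adjusted p = 0.0028 and 1.8e-05). RPS23 fell by 0.70 ± 0.11 after GSK591 and by 0.53 ± 0.10 after MS023 on that scale, and RPL36A by 0.62 ± 0.14 and 0.60 ± 0.12. RPL11 had -0.64 ± 0.21 after GSK591 (SE, edgeR adjusted p = 0.045). RPS16, RPS21, RPS23, RPL35 and RPL36A were lower after both inhibitors, and RPS16 and RPS23 also with Dex alone. RPS4X went the other way after MS023, from 9.99 and 7.31 CPM to 17.1 and 14.0 CPM, with log2 fold change 0.84 ± 0.18 (SE; edgeR adjusted p = 9.4e-04). The untreated libraries, at 15.3 and 15.0 CPM, lay within the pair with Dex added, and the call was lost without MS023 replicate 2. Leaving out 1 library at a time left 4 to 6 calls after GSK591 (4 without GSK591 replicate 2) and 6 to 9 after MS023, where each library moved the count by over 1.5 times (6 without replicate 1 of MS023 with Dex).

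Whether the response to 3 h of Dex differed with and without an inhibitor was tested by an interaction term, and 0 of 80 genes passed for either inhibitor. Among all genes, 0.0393% were higher and 0.183% lower for GSK591, and 0.0785% and 0.144% for MS023. The unadjusted p was under 0.05 for 4 genes with GSK591 and 5 with MS023, and DESeq2 called 0 in both. The smallest adjusted p belonged to RPSA, the laminin receptor precursor on the small subunit, in the MS023 interaction, at -0.61 ± 0.16 on the log2 scale (edgeR adjusted p = 0.072). RPSA had 62.3 and 74.9 CPM untreated and 67.9 and 79.9 CPM with Dex, and 66.0 and 60.7 CPM after MS023 and 45.3 and 44.3 CPM with Dex added. The pairs overlap in the first comparison and stand apart in the second.

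Dex for 15 min after an inhibitor called 2 genes after GSK591, both higher, beside 1.07% higher and 1.03% lower among all genes. They were RPL15, with log2 fold change 0.39 ± 0.10 (SE; edgeR adjusted p = 0.03), and RPS16, with log2 fold change 0.36 ± 0.10 (SE; edgeR adjusted p = 0.038). With nuclear counts or total counts as the scaling neither was called, and 0 or 1 gene was called when a library was left out. After MS023, 0 were called by edgeR, beside 1.23% higher and 0.842% lower among all genes, with 23 genes under an unadjusted p of 0.05 and 0 called by DESeq2. In that comparison 74 of the 80 changes were above 0, with a median of 0.19.

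Given together with Dex for 3 h, neither inhibitor moved a ribosomal protein gene past the threshold against Dex alone. For GSK591 with Dex, 0 of 80 were called (0 and 0 percent of all genes in each direction), with a median of 0.01, 3 genes under an unadjusted p of 0.05 and 0 called by DESeq2. For MS023 with Dex, 0 of 80 were called, beside 0.135% higher and 0.0611% lower among all genes, with 13 genes under an unadjusted p of 0.05 and 0 called by DESeq2. Without replicate 1 of that group, whose pair differed as described, 12 were called, 10 of them higher. That fit rests on replicate 2 alone and assumes that it varies like the other groups.

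By role, the 3 stalk proteins RPLP0, RPLP1 and RPLP2, which bind the elongation factors, all fell with GSK591 at 4 d and 7 d. RPLP0 had 173 and 195 CPM untreated, 121 and 126 CPM at 4 d and 136 and 128 CPM at 7 d, with log2 fold changes of -0.58 ± 0.10 and -0.48 ± 0.11. RPLP1 changed by -0.69 ± 0.11 and -0.56 ± 0.11, and RPLP2 by -0.66 ± 0.13 and -0.44 ± 0.13. With MS023 at 7 d, RPLP1 was the stalk gene that was called, at -0.43 ± 0.10, while RPLP0 had -0.13 ± 0.10 and RPLP2 -0.25 ± 0.12. RPSA changed by -0.36 ± 0.11 at 4 d and -0.64 ± 0.11 at 7 d of GSK591, both called. RPS6, the small-subunit protein phosphorylated downstream of mTOR, had 54.4 and 55.8 CPM untreated and 39.6 and 34.8 CPM at 4 d (-0.57 ± 0.13, called). RPL3, of the peptidyl transferase center, fell at all 3 times of GSK591, by 0.34 ± 0.11, 0.75 ± 0.11 and 0.43 ± 0.11 on the log2 scale. With total counts as the scaling, RPSA at 7 d of GSK591 was the only fall of this paragraph still called, and RPSA at 4 d of GSK591 and RPLP1 at 7 d of MS023 had changes above 0.

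Members known as partners of PRMTs or of MDM2 were lower in part. RPS2, the partner of PRMT3, had 91.9 and 109.9 CPM untreated, 64.1 and 72.9 CPM at 4 d of GSK591 and 89.6 and 104 CPM at 4 d of MS023, with log2 fold changes of -0.56 ± 0.11 (called) and -0.06 ± 0.11 (not called). RPS10, the PRMT5 substrate, had 33 and 47 counts untreated and 20 and 31 counts at 4 d of GSK591, with log2 fold change -0.75 ± 0.29 (SE; edgeR adjusted p = 0.07), which did not pass. It was not called in any of the 6 comparisons of an inhibitor with untreated cells. RPL5, RPL11 and RPL23 changed by -0.52 ± 0.21, -0.98 ± 0.19 and -0.75 ± 0.12 at 4 d of GSK591, the latter 2 called. At 7 d of MS023 they changed by -0.71 ± 0.21, -0.54 ± 0.18 and -0.30 ± 0.12, the first 2 called. Those 2 calls were lost when any 1 of the 4 libraries was left out, and both changes were above 0 with total counts as the scaling. RPL39L, with low counts, had 26 and 35 counts untreated and 10 and 6 at 7 d of GSK591, with log2 fold change -1.68 ± 0.38 (SE; edgeR adjusted p = 0.0013), a fall that stayed called under every alternative run. It had 41 and 39 counts at 7 d of MS023 (-0.17 ± 0.29, not called).

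The fall at 4 d of GSK591 was found in both subunits and on both sides of the other splits of the family. Of the 48 large-subunit genes, 41 were lower (median -0.63), and of the 32 small-subunit genes, 25 were lower (median -0.56). Of the 28 genes that hold an annotated snoRNA gene, 24 were lower (median -0.56), and of the 52 that hold none, 42 (median -0.60). Of the 46 genes with a TOP start, 42 were lower (median -0.59), and of the 17 tested with a window but no TOP start at the annotated position, 12 (median -0.66). That split rests on the annotated base and the length of the run: RPL3, with a run of 4, falls on the side without. Among the 30 genes that overlap no exon of another gene, 24 were lower and 1 higher (median -0.61). At 7 d, 23 of the 28 snoRNA hosts (median -0.47) and 28 of the 52 others (median -0.41) were lower. The differences between these subsets were not tested.

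Of 7 further genes of the cytosolic ribosome or its relatives, whose names fall outside the rule, 3 were lower at 4 d of GSK591, beside 8.28% of all genes. RACK1, a signalling scaffold on the small subunit, fell by 0.73 on the log2 scale (edgeR adjusted p = 4.3e-07), and RPL22L1 and RPL7L1 were the other 2. FAU, the gene of RPS30, was not called. RACK1 was also the gene most like the family's summed level over the 15 group means (Pearson r of log2 CPM 0.971 among 2734 protein-coding genes with at least 20 CPM). UMPS, of pyrimidine synthesis, followed at 0.961, then C19orf48 (0.934), SNX5 (0.914) and HNRNPA1 (0.904). These points share libraries and their scaling, and the values are a description.

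Other genes with TOP messages were counted from a list. Of 23 tested, 14 were lower and none higher at 4 d of GSK591, beside 8.28% of all genes lower, with a median of -0.66. At 7 d 6 were lower, beside 6.52%, with a median of -0.39. HNRNPA1, a splicing regulator, had -1.13 at 4 d (edgeR adjusted p = 1.9e-12), and VIM, the intermediate filament vimentin, -0.92. The elongation factor genes EEF2 and EEF1A1 had -0.68 and -0.51, also called, while TPT1 had -0.20 and IMPDH2 -0.09, neither called. At 7 d of MS023, 8 of the 23 were lower, beside 6.51% of all genes, with a median of -0.36. These values hold for the TMM-scaled fit, and other scalings are not given for this list. With total counts the median of all genes at 7 d of MS023 was itself 1.02.

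The 78 genes of the mitochondrial ribosome were called in equal numbers in each direction at 4 d of GSK591: 5 were lower and 5 higher, with a median of -0.13, which is near the shares of all genes (8.28% lower, 8.91% higher). At 7 d of GSK591, 11 were lower and 1 higher, beside 6.52% and 6.68% of all genes, with a median of -0.27. Of the 266 ribosomal protein pseudogenes that passed the filter, 11 were lower and 5 higher at 4 d of GSK591, both smaller shares than those of all genes, with a median of -0.37. In that comparison 179 of the 266 had a change below 0. All pseudogenes together held 6066 and 6155 counts in the libraries of 4 d of GSK591. The part of such low counts in the shares called was not tested. Reads of a family member and of its processed copies cannot always be told apart, and the pseudogenes' share of nuclear counts was 0.280% in untreated cells and 0.224% at 4 d of GSK591.

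Of 14 tested genes of factors known to control ribosomal protein genes or their messages, 4 were lower and 1 higher at 4 d of GSK591, beside 8.28% and 8.91% of all genes, so the 1 higher is near the background. MYC, at 85.7 CPM on average, fell by 0.50 on the log2 scale (edgeR adjusted p = 0.0013) and LARP1 by 0.48 (edgeR adjusted p = 0.0012). E2F1, a cell-cycle factor, fell by 1.97, and RPTOR, a subunit of mTOR complex 1, by 0.40. DDIT4, an inhibitor of mTOR complex 1, rose by 0.47 at 4 d of GSK591 and by 1.20 after 3 h of Dex. At 7 d of GSK591 MYC had -0.19 and DDIT4 -0.15, neither called, while LARP1 had -0.60, called. The part of these genes in the family's change was not tested.

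The authors' deposited tables, made with DESeq2 against untreated cells, list 72 of the 81 genes. In the authors' deposited table for 4 d of GSK591, 57 of the 71 members with an adjusted p were lower at 0.05 and 1 was higher, beside 14.0% and 12.9% of all genes, with a members' median log2 fold change of -0.69. In the authors' deposited tables for 2 d and 7 d of GSK591, 17 and 37 members were lower and 1 was higher in each, beside 9.16% and 13.0% of all genes lower and 5.52% and 10.7% higher. For MS023 at 2, 4 and 7 d, the authors' deposited tables give 6, 37 and 28 members lower, beside 9.26%, 12.3% and 12.3% of all genes, and 4, 1 and 1 higher, beside 8.43%, 10.2% and 9.63%. The member called higher at 4 and 7 d of GSK591 and at 7 d of MS023 in the authors' deposited tables was RPS27L, with log2 fold changes of 0.69, 0.85 and 0.56. For Dex at 15 min the authors' deposited table calls 0 members, beside 0.782% of all genes lower and 3.15% higher, and for Dex at 3 h 23 lower and 0 higher, beside 11.0% and 10.9%.

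The scaling set the sign of the change for MS023, while the family's median lay below that of all genes under each scaling. A change of scaling moves the log2 fold changes of all genes by nearly the same amount. The relative position could thus hardly differ between scalings and gives no separate support. With total counts as the scaling, the median of all genes tested shifted to 0.68, 0.74 and 1.02 at 2, 4 and 7 d of MS023, and the members' medians relative to it were -0.11, -0.30 and -0.17. For GSK591 at 2, 4 and 7 d the median of all genes with total counts was 0.29, 0.42 and -0.03, and the members' relative medians were -0.30, -0.59 and -0.43. With nuclear counts the relative medians were -0.58 at 4 d of GSK591 and -0.30 at 4 d of MS023. No measure of absolute transcription was analysed here, so these scalings cannot be told apart.

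**Figure D5:**
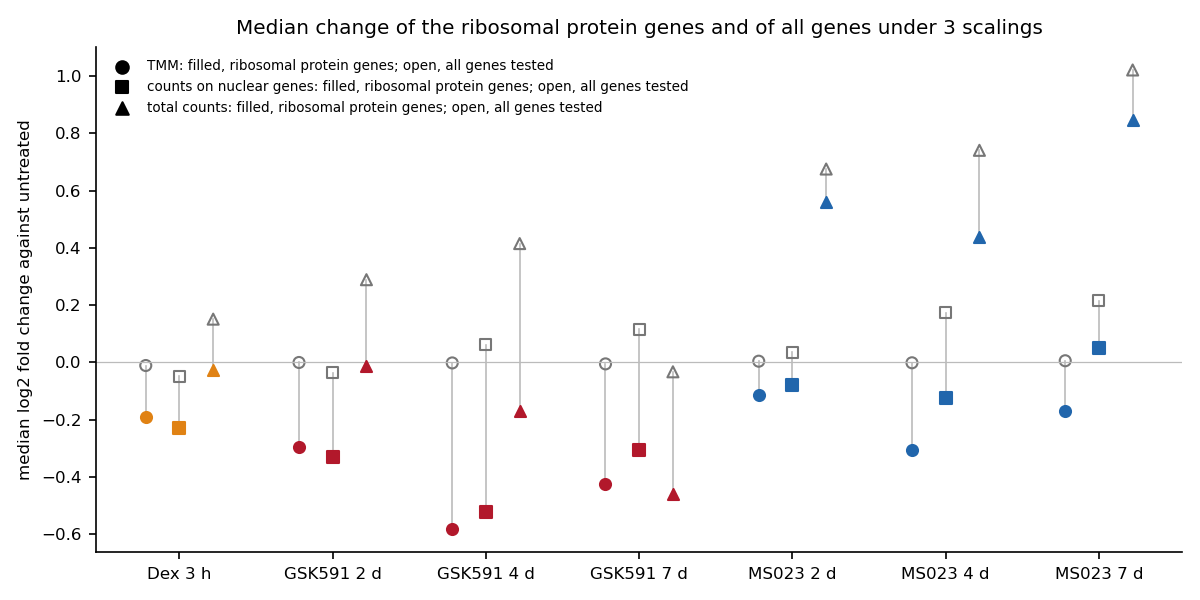
Median log2 fold change against untreated cells (vertical axis) of the ribosomal protein genes (filled) and of all genes tested (open) under TMM (circles), nuclear counts (squares) and total counts (triangles). With total counts the filled points of MS023 lie above 0. Each filled point lies below its open one, a gap that a change of scaling can hardly alter. The members' medians relative to all genes with total counts are -0.59 at 4 d of GSK591 and -0.11, -0.30 and -0.17 for MS023.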

How the data were processed

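PRO-seq was analysed in 30 libraries of A549 cells, 15 groups of 2. The authors deposited 1 table of counts per gene for all libraries. Per the submitters' processing notes, Subread's featureCounts 2.0.1 and hg38 were used, and the annotation, feature type and strand setting are not given in the sources used here. The authors also deposited DESeq2 tables against untreated cells, with a mean normalized signal, log2 fold changes and p-values, per the file headers.

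Tests on the counts used R 4.3.3, edgeR version 4.0.16 and limma version 3.58.1. Library sizes were scaled by TMM, genes were kept by a minimum count of 10 and minimum total of 15, and all 15 groups entered 1 robust quasi-likelihood fit with 15 residual degrees of freedom. The 22919 genes tested were adjusted by Benjamini-Hochberg at 0.05, in 2-sided tests. The common biological coefficient of variation was 10.6%. Library totals of 8441211 to 13069598 counts gave the members 27084 to 60563 counts. The procedure was also run on simulated data, and the outcome of that run is not reported here. The CPM values and fold changes printed were computed here from the deposited counts. Alternatives were DESeq2 1.42.0, other scalings, no filter on low counts, mitochondrial and ribosomal RNA genes left out, the compared groups alone, a replicate block and each library left out. Scaling by nuclear counts, and leaving out the libraries of Dex with MS023, were chosen after seeing the data.

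Members, gene lists and tests were chosen with earlier results of these data known. Genes named in each comparison were the 3 called members with the largest rise and the 3 with the largest fall among those with a mean of at least 5 CPM, plus RPLP0, RPLP1, RPLP2, RPSA, RPS6, RPS2, RPS10, RPL3, RPL5, RPL11, RPL23, RPS27, RPS27L, RPL3L, RPL10L and RPL39L. RPL13A at 4 d of GSK591, RPS26 and RPS12 at 7 d, RPS29 at 4 d and the members listed as not called were named after their values were seen. The values of some genes are not reported here. Gene positions and overlaps come from GENCODE 29 and start sequences from RefSeq, GRCh38.p14, where 17 members had no window.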

Additional observations from a re-analysis of the deposited data

Results flagged for a closer look

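The same treatment contrast differed between the inhibitors at each time, by a direct test of GSK591 against MS023 in edgeR. At 2 d, 8 ribosomal protein genes were called, 7 of them lower with GSK591, beside 1.58% of all genes lower. At 4 d, 25 were called, 24 of them lower with GSK591, beside 3.52%. At 7 d, 19 were called, all lower with GSK591, beside 4.47%. With 1 library left out at a time, the called genes numbered 1 to 2 at 2 d, 6 to 14 at 4 d and 6 to 11 at 7 d. The mean mitochondrial share of the counts, 70.0%, 69.9% and 76.2% with GSK591 and 63.6%, 65.5% and 59.1% with MS023 at these times, moved with the inhibitor, and its part in the result was not tested.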

How the results depend on the processing

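Counts are called ribosomal protein genes, and the shares of all genes called under these alternatives are not given here. With total counts the median of all genes was itself 1.02 at 7 d of MS023 and -1.07 at 7 d of GSK591 against MS023. With total counts as the scaling, 0 were called for Dex at 3 h, 1, 5 and 7 for GSK591 and 46, 30 and 75 for MS023 at 2, 4 and 7 d, 18 and 80 for GSK591 against MS023 at 2 and 7 d, 0 for Dex at 15 min and at 3 h after GSK591, and 1 for Dex at 3 h after MS023. With nuclear counts, 26 were called for GSK591 at 7 d, 5, 11 and 9 for MS023 at 2, 4 and 7 d, 42 for GSK591 against MS023 at 4 d and 0 for Dex at 15 min after GSK591. DESeq2 called 6 for Dex at 3 h, 9 for GSK591 at 2 d, 9 for MS023 at 7 d, and 5, 14 and 10 for GSK591 against MS023 at 2, 4 and 7 d. The compared groups alone gave 35 for GSK591 and 19 for MS023 at 2 d, 17 and 38 for GSK591 against MS023 at 2 and 4 d, and 0 and 5 for Dex at 15 min after GSK591 and MS023. Without the libraries of Dex with MS023, 34 were called for GSK591 and 15 for MS023 at 2 d, 15 for Dex at 3 h, 24 for MS023 at 7 d, 3 for Dex at 15 min after MS023 and 1 for the MS023 interaction. With no filter on low counts, 1 was called for MS023 with Dex against Dex, 11 for MS023 at 7 d and 0 for Dex at 15 min after GSK591. DESeq2 size factors gave 1 for Dex at 15 min after MS023, and leaving out mitochondrial and ribosomal RNA genes gave 1 there and 1 for the MS023 interaction. The causes were not tested, except that fewer libraries enter some fits.

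With each library left out in turn, the counts were 0 for Dex at 15 min, 3 to 7 for Dex at 3 h, 0 for GSK591 with Dex and 0 to 12 for MS023 with Dex against Dex, 5 to 9, 51 to 60 and 20 to 43 for GSK591 and 1 to 4, 12 to 20 and 4 to 12 for MS023 at 2, 4 and 7 d. They were 1 to 2, 6 to 14 and 6 to 11 for GSK591 against MS023, 0 to 1 and 4 to 6 for Dex at 15 min and 3 h after GSK591, 0 and 6 to 9 after MS023, and 0 and 0 to 1 for the interactions with GSK591 and MS023. A group left with 1 library is assumed to vary like the others. Of the 88 named calls, 207 of 352 fits without a library kept the call.

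With total counts, these log2 fold changes turned from negative to positive: RPSA 0.048 at 4 d of GSK591, RPS26 0.11 and RPL35 0.26 at 2 d of MS023, RPL11 0.018, RPL13A 0.067, RPS4X 0.083, RPLP1 0.38, RPS6 0.32, RPL3 0.28, RPL5 0.10 and RPL23 0.32 at 4 d of MS023, and RPS4X 0.21, RPL5 0.31, RPL13A 0.42, RPLP1 0.59 and RPL11 0.48 at 7 d of MS023.

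Replicate numbers did not consistently pair the libraries: deviations of same-numbered libraries correlated at -0.607 to 0.623 over 105 group pairs, with a median of 0.0324. Of these pairs, 39 had r over 0.1. A factor shared between groups that does not follow the number was not tested, and a block on the number would not remove it. With the replicate number as a block, 68 and 52 were called for GSK591 at 4 and 7 d, 21 at 2 d, 12 for Dex at 3 h, 1 for MS023 with Dex against Dex and 1 for Dex at 15 min after MS023. Depth limits RPL3L, RPL39L and RPS10 most, each with few counts per library.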
